A study of Mus musculus with 94 samples.

Results

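The genes described here are 10 lineage genes that stem and progenitor cells can transcribe before they commit, a state often called priming. They were taken by name from the 13244 genes of the deposited expression table: Lyz2, Prtn3, Mpo, Elane and Ctsg on the myeloid side, and Car2, Blvrb, Hbb-bt, Gata1 and Klf1 on the erythroid side. All 10 had a row. The table covers 94 single cells of C57BL/6 mice, of which 46 carry the genotype Ski-KO and 48 Ski-WT. The Ski protein represses Smad-driven transcription, and how the gene was inactivated is not given in the sources used here. Cells of both genotypes descended from fetal liver stem cells and were recovered from recipients' bone marrow 6 months after transplantation. The sort kept donor cells (Cd45.2+) that lacked lineage markers and Cd48 and that carried c-Kit, Sca-1 and Cd150, a gate that enriches long-term stem cells. The age and number of donors and recipients are not given in the sources used here. Cell labels start with a prefix whose meaning is not stated: 051716 for 27 Ski-KO cells, 051816 for the other 19, and 061016 for the whole Ski-WT group. No prefix holds both genotypes, so prefix and genotype cannot be told apart. Because the labels name no mouse, a genotype is treated as 1 sample, and genotypes are described without a test.

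Values are TPM, a relative transcript abundance that takes account of gene length and keeps no sequencing depth. The number of genes at 5 TPM or more ran from 1154 to 3750 per cell. Its median was 2094 in prefix 051716, 2288 in prefix 051816 and 2415.5 in the Ski-WT cells. Of the transcripts behind the gate, Kit reached 5 TPM in 79 of 94 cells, Ptprc (Cd45) in 61 and Ly6a (Sca-1) in 56. Slamf1 (Cd150) reached it in 11 cells and Cd48 in 0. No columns of the table held identical values. A cell is called positive below for a gene at 5 TPM or more. Each share is followed by its 95% Clopper-Pearson interval (exact), which covers counting error only.

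Neutrophil granule genes work as a set in committed granulocyte progenitors. Mpo encodes myeloperoxidase, Elane, Prtn3 and Ctsg encode the related serine proteases neutrophil elastase, proteinase 3 and cathepsin G, and Lyz2 encodes lysozyme of macrophages and neutrophils. On the erythroid side, Gata1 and Klf1 encode transcription factors of red cell development, Hbb-bt encodes an adult beta-globin chain, Car2 encodes carbonic anhydrase 2, and Blvrb encodes biliverdin reductase B, an enzyme of haem breakdown. Gata1 is also required in megakaryocytes, the platelet-forming cells.

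The myeloid genes separated into a pair that many cells held and a trio that no cell held. Prtn3 and Elane show this most directly, because they are neighbours on mouse chromosome 10, with 3072 bases between the end of Prtn3 and the start of Elane in GENCODE (GRCm38), and both are read from the plus strand. Prtn3 was at 5 TPM or more in 57 of 94 cells and Elane was listed at 0 in all 94. Their promoters are shown to set this contrast beside the sequence. Capitals mark GAGGAA, a core bound by PU.1, and AACGG, a core bound by Myb. Both promoters hold both words once, without overlap. The sequences run 5′ to 3′ from 250 bases before to 50 after the RefSeq start (GRCm38.p6, a different build from the mm9 named for the expression values), at chr10:79879417-79879716 for Prtn3 (a start inside the longer GENCODE gene) and chr10:79886062-79886361 for Elane, both on the plus strand.
Prtn3: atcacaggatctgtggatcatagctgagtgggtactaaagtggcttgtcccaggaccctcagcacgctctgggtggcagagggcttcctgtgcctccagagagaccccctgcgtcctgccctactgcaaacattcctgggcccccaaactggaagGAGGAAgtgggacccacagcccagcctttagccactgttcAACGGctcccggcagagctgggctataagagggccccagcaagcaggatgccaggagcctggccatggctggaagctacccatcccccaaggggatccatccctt
Elane: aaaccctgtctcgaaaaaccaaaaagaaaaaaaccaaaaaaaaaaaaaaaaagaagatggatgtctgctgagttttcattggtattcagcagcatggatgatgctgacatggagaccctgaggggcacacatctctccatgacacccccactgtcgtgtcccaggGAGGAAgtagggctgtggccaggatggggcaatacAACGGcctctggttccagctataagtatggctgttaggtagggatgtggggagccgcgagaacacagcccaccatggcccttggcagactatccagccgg
Searched on both strands, GAGGAA occurs in 28.3% and AACGG in 17.4% of 32851 RefSeq promoters of this length. Of the other myeloid genes, Lyz2 held neither word. Mpo held GAGGAA in 2 places and Ctsg in 1, and both lacked AACGG. A match is a description of letters and not a site in use. Of the 10 genes, 9 had a promoter in this table; Car2 was not matched.

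The values by sample start with Lyz2 (GRCm38 chr10:117277331-117282321, minus strand), the myeloid gene with the highest single value. Lyz2 reached 5 TPM in 17 of 27 cells of prefix 051716, 11 of 19 of prefix 051816 and 28 of 48 Ski-WT cells. The share of positive cells was 60.9% in Ski-KO (45.4% to 74.9%) and 58.3% in Ski-WT (43.2% to 72.4%). The lowest, median and highest values were 0, 129 and 3614 TPM in prefix 051716, 0, 66.2 and 2377 TPM in prefix 051816, and 0, 114 and 2315 TPM in the Ski-WT cells. The groups overlapped over nearly their whole ranges, and each held cells listed at 0 and cells far above 5 TPM. Mean log2(TPM + 1) was 5.34 ± 4.41 (SD over 46 cells) in Ski-KO and 5.12 ± 4.30 (48 cells) in Ski-WT, a difference of 0.22 that was 0.46 in prefix 051716 and -0.12 in prefix 051816.

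Prtn3 (GRCm38 chr10:79874476-79883174, plus strand) was the myeloid gene with the lower level in both Ski-KO prefixes. Positive cells numbered 14 of 27 in prefix 051716 and 10 of 19 in prefix 051816, together 52.2% of Ski-KO cells (36.9% to 67.1%). Among the Ski-WT cells 33 of 48 were positive (68.8%, 53.7% to 81.3%), and the intervals overlap. The lowest, median and highest values were 0, 14.6 and 960 TPM in prefix 051716, 0, 26.6 and 436 TPM in prefix 051816, and 0, 119 and 1739 TPM in the Ski-WT cells. Medians were thus lower in both Ski-KO prefixes while the ranges overlapped. Mean log2(TPM + 1) was 3.90 ± 3.70 (SD, 46 cells) in Ski-KO and 5.62 ± 3.78 (48 cells) in Ski-WT. The difference of -1.72 was nearly equal in prefix 051716 (-1.73) and prefix 051816 (-1.69), and was smaller than the SD over cells of either genotype. The log2 ratio of mean TPM was -1.16.

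A difference of 1 or more in size, in the same direction in both Ski-KO prefixes, was counted among 6240 genes, those with a value above 0 in 25% or more of the Ski-KO or of the Ski-WT cells. Of these, 11.5% were lower in Ski-KO by that rule and 2.0% were higher. The median number of genes detected per cell was also lower in both Ski-KO prefixes, and its part in these shares was not tested. Both Ski-KO prefixes are compared with the same Ski-WT cells. Of the 10 genes, 5 entered this comparison (Lyz2, Prtn3, Car2, Blvrb and Hbb-bt), 1 was lower by the rule (Prtn3) and 1 was higher (Hbb-bt). The median difference over all genes compared was -0.22, and over the 5 genes it was -0.28. With 5 genes compared, 1 call in each direction gives no share to set firmly against these backgrounds.

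Mpo (GRCm38 chr11:87793581-87804413), Elane (chr10:79886247-79888215) and Ctsg (chr14:56099881-56102574) were listed at 0 in every cell of all prefixes. A count of 0 in 94 cells allows a share of up to 3.19% of cells, and of up to 6.52% within Ski-KO and 6.25% within Ski-WT, for cells that show the transcript in such libraries. These limits are 3 cells of the total and not Clopper-Pearson limits, which were 3.85%, 7.71% and 7.40% in the same order. These 3 genes belong to 960 genes of the table with no value above 0 in any cell. An exact 0 in a table of estimated values can also be a failed estimate, which was not tested.

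**Figure D1:**
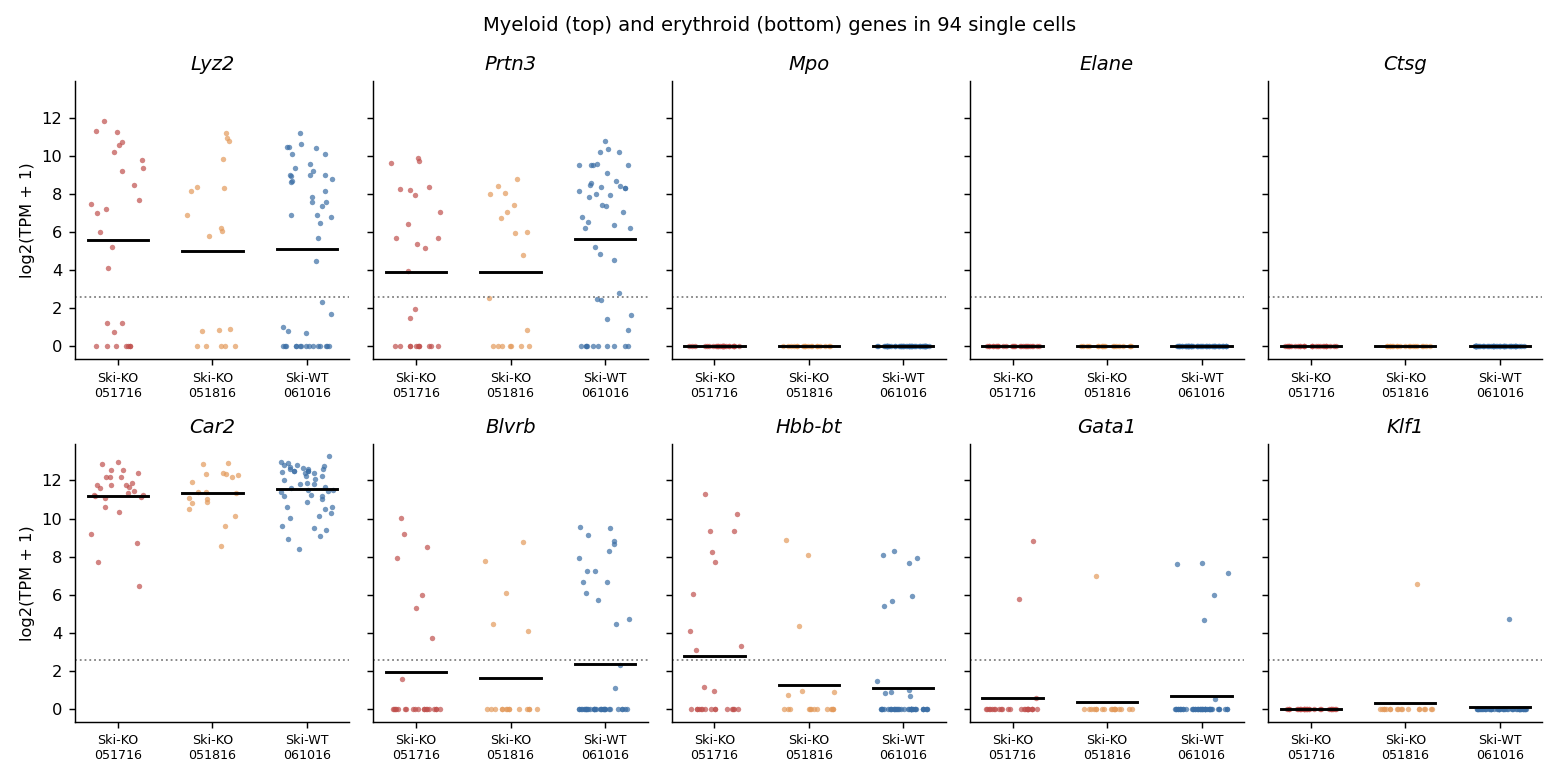
The vertical axis gives log2(TPM + 1) for each of the 10 genes, and cells are grouped along the horizontal axis by their 3 label prefixes (94 cells). Each point is a cell, each black bar marks the mean in that prefix, and the dotted line marks 5 TPM. Car2 is high in every cell, Mpo, Elane and Ctsg are at 0 in every cell, and the other genes are high in some cells and at or near 0 in the rest.

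Over the 13244 genes of the table, 960 were at 0 in all cells. Beside Lyz2, 6614 others reached 5 TPM in at least 10 cells, so detection in fewer than 10 cells was common. In a list of 20 genes of early neutrophil granules and progenitors, all in the table, 8 were at 0 in all cells. Among these were Cebpe, a granulocyte transcription factor gene, and Fcnb, a granule ficolin gene. Another 4 were found at 5 TPM or more in fewer than 10 cells, among them Ms4a3, a marker gene of committed granulocyte and monocyte progenitors (1 cell). The most widely found genes of this list also serve other cells: Srgn, the proteoglycan serglycin, in 92 cells, Calr, an endoplasmic reticulum chaperone, in 75, Gstm1, a glutathione transferase, in 57, and Serpinb1a, an inhibitor of neutrophil proteases, in 45. Of 8 list genes in the genotype comparison, Gstm1 was lower in Ski-KO (-2.54) and Plac8 was higher (1.83) by the rule above, and the list median was 0.11. Among 15 myeloid regulators, Myb reached 5 TPM in 81 cells, Myc in 60, Runx1 in 41 and Csf3r, the G-CSF receptor gene, in 22. Spi1, which encodes PU.1, reached it in 7 cells, and Cebpa, the gene of the leading granulocyte factor, was at 0 in all. None of the 4 regulators compared between genotypes differed by the rule.

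Most markers of mature myeloid cells were found in few cells or none, to be read beside the counts over all genes given above. Of 13 late neutrophil genes in the table, 6 were at 0 in all cells and S100a8 was at 5 TPM or more in 4. The exceptions were Cxcr2, a chemokine receptor gene, in 89 cells at a mean of 44.1 TPM, and Lyz1 in 52. Of 18 monocyte and macrophage genes, 10 were at 0 in all cells, including Csf1r, Ly6c2 and Ccr2, and 16 were found in fewer than 10 cells or in none. The other two were Klf4, a transcription factor gene, in 30 cells, and Ctss, the protease cathepsin S, in 11. The summed level of the list had a median of 0.595 TPM in Ski-KO cells (range 0 to 1176) and 9.21 TPM in Ski-WT cells (0 to 2969).

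Lyz1 needs a separate remark because it is a close copy of Lyz2. Of the 50-base windows of the longest Lyz2 transcript in GENCODE, 15.4% also occur in a Lyz1 transcript, so reads can be split between the genes. Lyz1 was at 5 TPM or more in 49 of the 56 Lyz2-positive cells, where 30.98 were expected from the shares in each prefix. In the 49 cells with both, Lyz2 was a median of 10.3 times as high as Lyz1. Values of Lyz2 and Lyz1 are therefore not independent measurements, and Lyz1 is not counted as a further myeloid gene.

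Car2 (GRCm38 chr3:14886273-14900770, plus strand) was the one gene of the 10 found in every cell. The lowest, median and highest values were 87.5, 3081 and 8083 TPM in prefix 051716, 377, 2696 and 7728 TPM in prefix 051816, and 342, 3565 and 9844 TPM in the Ski-WT cells. The prefixes overlapped, and the single lowest value lay in prefix 051716. Car2 had a median rank of 45 among the 13244 genes of a cell, with ranks from 4 to 1134. Mean log2(TPM + 1) was 11.26 ± 1.38 (SD, 46 cells) in Ski-KO and 11.54 ± 1.22 (48 cells) in Ski-WT, a difference of -0.28 that is close to the median of all genes. Car1, the related carbonic anhydrase gene of the red cell programme, reached 5 TPM in 1 cell.

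Blvrb (GRCm38 chr7:27447978-27466144, plus strand) was found in a minority of cells of each prefix. It reached 5 TPM in 7 of 27 cells of prefix 051716, 5 of 19 of prefix 051816 and 15 of 48 Ski-WT cells, a share of 26.1% in Ski-KO (14.3% to 41.1%) and 31.2% in Ski-WT (18.7% to 46.3%). The median was 0 TPM in each prefix, and the highest values were 1026, 434 and 759 TPM in the same order. Among positive cells the median was 243 TPM in prefix 051716, 68.2 TPM in prefix 051816 and 152 TPM in the Ski-WT cells, so the Ski-WT value lay between those of the Ski-KO prefixes. The difference in mean log2(TPM + 1) was -0.57, from 1.81 ± 3.20 (SD, 46 cells) and 2.38 ± 3.55 (48 cells).

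Hbb-bt (GRCm38 chr7:103812524-103813996, minus strand) was found most often, and reached its highest values, in prefix 051716. It reached 5 TPM in 10 of 27 cells there (37.04%, interval 19.4% to 57.6%), in 3 of 19 cells of prefix 051816 (15.8%, 3.38% to 39.6%) and in 7 of 48 Ski-WT cells (14.6%, 6.07% to 27.8%). The median was 0 TPM in each prefix, and the highest values were 2463, 464 and 317 TPM. Set against Ski-WT, mean log2(TPM + 1) was higher by 1.65 in prefix 051716 and by 0.13 in prefix 051816, and by 1.02 over both, from 2.15 ± 3.54 (SD, 46 cells) and 1.12 ± 2.52 (48 cells). The count of Hbb-bt as higher in Ski-KO therefore rests on prefix 051716. A second row of the table, Hbb-b2, held the same value as Hbb-bt in all 94 cells, and 58.3% of the 50-base windows of the Hbb-bt transcript also occur in Hbb-bs, the other adult beta-globin gene, so the level cannot be assigned to 1 gene copy. A further beta-globin row, Hbb-b1, was at 0 in all 94 cells. The alpha-globin gene Hba-a1 was above 0 in 1 cell and at 5 TPM or more in none, and the alpha-globin gene Hba-a2 had no row.

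Gata1 (GRCm38 chrX:7959260-7978071, minus strand) was found at 5 TPM or more in 8 of 94 cells. In prefix 051716 its values were 53.8 and 453 TPM in 2 cells. A single cell of prefix 051816 had 128 TPM. In the Ski-WT cells the values were 25, 62.2, 138, 196 and 206 TPM. The share was 6.52% in Ski-KO (1.37% to 17.9%) and 10.4% in Ski-WT (3.47% to 22.7%). Klf1 (GRCm38 chr8:84901928-84905291, plus strand) was found in 2 cells, at 92.8 TPM in prefix 051816 and 25.5 TPM among the Ski-WT cells. Neither gene entered the genotype comparison, since each was above 0 in under 25% of the cells of both genotypes.

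Klf1 binds CACCC words in the adult beta-globin promoter, and GATA words lie in the Klf1 promoter, so these promoters are printed with CACCC and the GATA words in capitals, on either strand and without overlap. The GATA words searched were AGATAA and AGATAG, as well as the forms TGATAA and TGATAG. The Hbb-bt sequence (chr7:103813874-103814173, minus strand, GRCm38.p6) holds CACCC in 3 places. The Klf1 sequence (chr8:84901732-84902031, plus strand, GRCm38.p6) holds a GATA word once and CACCC, read on either strand, in 2 places.
Hbb-bt: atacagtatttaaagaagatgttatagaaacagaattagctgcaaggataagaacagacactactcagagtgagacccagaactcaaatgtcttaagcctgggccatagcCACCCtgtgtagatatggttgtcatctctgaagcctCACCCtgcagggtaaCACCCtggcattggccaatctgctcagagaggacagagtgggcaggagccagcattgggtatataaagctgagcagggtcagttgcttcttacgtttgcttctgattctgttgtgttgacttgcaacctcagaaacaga
Klf1: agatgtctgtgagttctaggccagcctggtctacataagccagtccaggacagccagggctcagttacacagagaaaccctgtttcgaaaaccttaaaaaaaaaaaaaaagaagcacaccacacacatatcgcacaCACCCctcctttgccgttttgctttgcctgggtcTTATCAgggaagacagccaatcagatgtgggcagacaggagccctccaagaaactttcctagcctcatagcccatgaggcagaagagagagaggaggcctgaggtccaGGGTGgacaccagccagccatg
Of 32851 RefSeq promoters of this length, 57.5% hold CACCC and 29.8% hold a GATA word. Hbb-bt was at 0 TPM in both Klf1-positive cells, where 0.304 shared cells were expected, and Gata1 and Klf1 were together in 0 cells, where 0.157 were expected. With so few positive cells, neither exclusion nor joint presence was detectable. Both Klf1-positive cells held Lyz2 (285 and 51.2 TPM) and Prtn3 (338 and 172 TPM), myeloid members, beside Klf1. The numbers expected from the shares within each prefix were 1.16 cells for Lyz2 and 1.21 for Prtn3.

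Other erythroid genes ranged from found in nearly all cells to found in none. Of 16 regulators, 5 reached 5 TPM in fewer than 10 cells or in none, a smaller share than over all genes of the table. Among the regulators, Lmo2 was at 5 TPM or more in 91 cells, Myb in 81, Gata2, the stem cell relative of Gata1, in 73, and Nfe2 in 63, while Epor, the erythropoietin receptor gene, was found in 4. Of 18 structural red cell genes in the table, 7 were at 0 in all cells, among them Alas2, the erythroid enzyme of haem synthesis. Found in 10 cells or more were Hemgn, a nuclear protein gene of blood cells, in 29 cells, and Hbb-b2, the row that duplicates Hbb-bt, in 20. Of the haem pathway genes, Hmox2 was found in 37 cells, Urod in 32, Alad in 31 and Blvra, the other biliverdin reductase, in 24. By the genotype rule, Stat5a (-1.09) was the only called gene of 12 regulators and Uros (-1.20) of 9 haem genes. The medians of these lists were -0.05 and -0.36.

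Low values were kept apart as possible carry-over. Of 299 values above 0 over the 10 genes, 35 lay under 5 TPM (11.7%, against 34.5% over all genes), and 27 of these were under 2 TPM. They came from 11 cells for Lyz2 (0.63 to 4.05 TPM), 9 for Prtn3 (0.84 to 4.82), 10 for Hbb-bt (0.63 to 1.73), 3 for Blvrb (1.17 to 3.95) and 2 for Gata1 (0.43 and 0.50), with none for Car2 or Klf1. Above the limit, the lowest positive value was 16.1 TPM for Lyz2, 12.2 TPM for Blvrb, 7.49 TPM for Hbb-bt and 25 TPM for Gata1, and it was 5.86 TPM for Prtn3. A gap thus lay between low and positive values for the first 4 of these genes, and only 3 values of the 10 genes lay from 5 to under 10 TPM. Whether low values are carry-over was not tested.

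The next question was whether myeloid and erythroid genes shared or avoided the same cells. For each pair, the number of cells with both genes was set beside the number expected from the shares within each prefix, and a coefficient was computed as the correlation of detection over the 94 cells with prefix means taken off, where 0 means no relation. Among 6372 genes found in 10 to 84 cells, 5.52% of pairs had a coefficient of 0.2 or more and 1.37% had -0.2 or less. The median was 0.02. No p-value is attached to these descriptions.

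Lyz2 and Prtn3 were found together in 31 cells, where 33.9 were expected, with a coefficient of -0.13. They were together in 7 cells of prefix 051716 (8.81 expected), 3 of prefix 051816 (5.79 expected) and 21 Ski-WT cells (19.2 expected). Shared cells were thus fewer than expected in both Ski-KO prefixes and more than expected in the Ski-WT cells, and this difference was not tested. Over the Ski-KO cells alone the coefficient was -0.41. The shares of pairs given above pool both genotypes and are no background for this value. With Prtn3, 19.8% of all genes had a coefficient of 0.2 or more in Ski-KO cells alone, against 4.41% in the pooled cells. Large coefficients above 0 were thus more common in Ski-KO cells alone. Whether -0.41 is unusual there was not tested. Over all prefixes, 25 cells held Lyz2 without Prtn3, 26 held Prtn3 without Lyz2, and 12 held neither.

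For the 4 pairs across lineages with enough cells, found and expected numbers differed by fewer than 3 cells. Lyz2 was found with Blvrb in 17 cells (16.1 expected) and with Hbb-bt in 10 (12.1 expected). Prtn3 was found with Blvrb in 14 cells (16.6 expected) and with Hbb-bt in 13 (11.6 expected). Of these 4 cross pairs, 2 lay above and 2 below the expected number, with a median coefficient of -0.04. On the erythroid side, Blvrb and Hbb-bt were together in 6 cells (5.57 expected, coefficient 0.03). None of the 6 pairs among Lyz2, Prtn3, Blvrb and Hbb-bt reached 0.2 in either direction, with coefficients from -0.13 to 0.08. Gata1, in too few cells for that comparison, was with Lyz2 in 6 cells (4.75 expected, coefficient 0.10) and with Prtn3 in 2 (5.0 expected, coefficient -0.24), the only cross-lineage pair of the members past 0.2 in size.

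**Figure D2:**
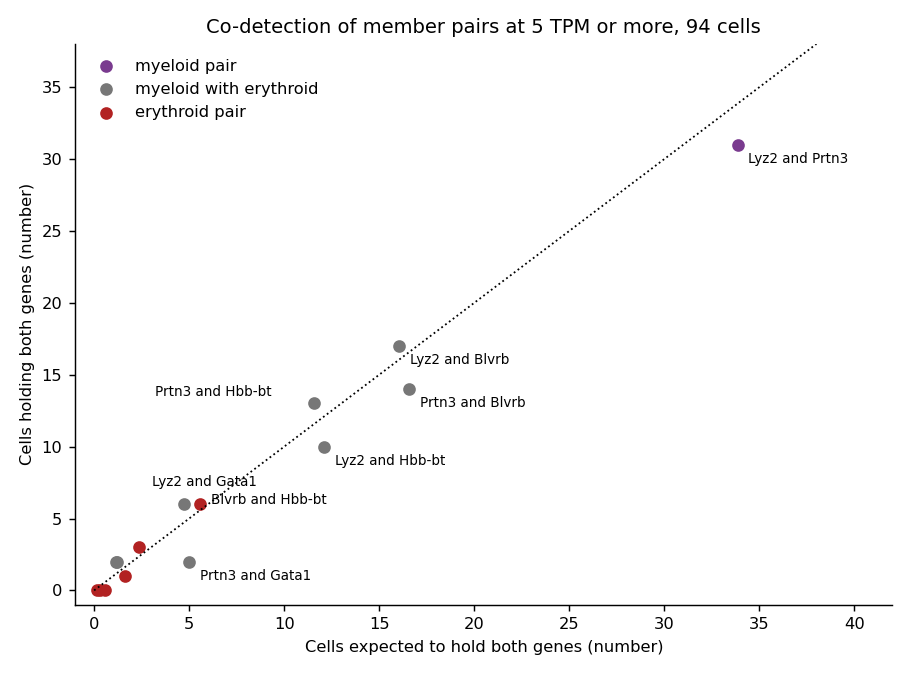
Number of cells holding both genes of a pair at 5 TPM or more (vertical axis) against the number expected from the shares within each prefix (horizontal axis), over 94 cells. Each point is 1 of the 15 pairs among the 6 genes found in some but not all cells, and the dotted line marks equal numbers. Most points lie near the line, while Prtn3 with Gata1 (2 cells found, 5.0 expected) and Lyz2 with Prtn3 (31 found, 33.9 expected) lie below it. Prtn3 with Blvrb (14 found, 16.6 expected) and Lyz2 with Hbb-bt (10 found, 12.1 expected) also lie below the line. Prtn3 with Hbb-bt (13 found, 11.6 expected) lies above it.

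Counted by cell, 43 of 94 cells (45.7%, interval 35.4% to 56.3%) held a myeloid gene (Lyz2 or Prtn3) together with an erythroid gene other than Car2, and 41.03 were expected. A further 39 cells held only a myeloid gene, 4 only an erythroid gene and 8 neither. The mixed cells were 23 of 46 in Ski-KO (21.9 expected) and 20 of 48 in Ski-WT (19.2 expected). With Car2 included, all cells carried an erythroid gene of the list. Leaving Car2 out, 41 cells held 2 of the other genes, 24 held 1, 20 held 3 and 1 held 4.

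**Figure D3:**
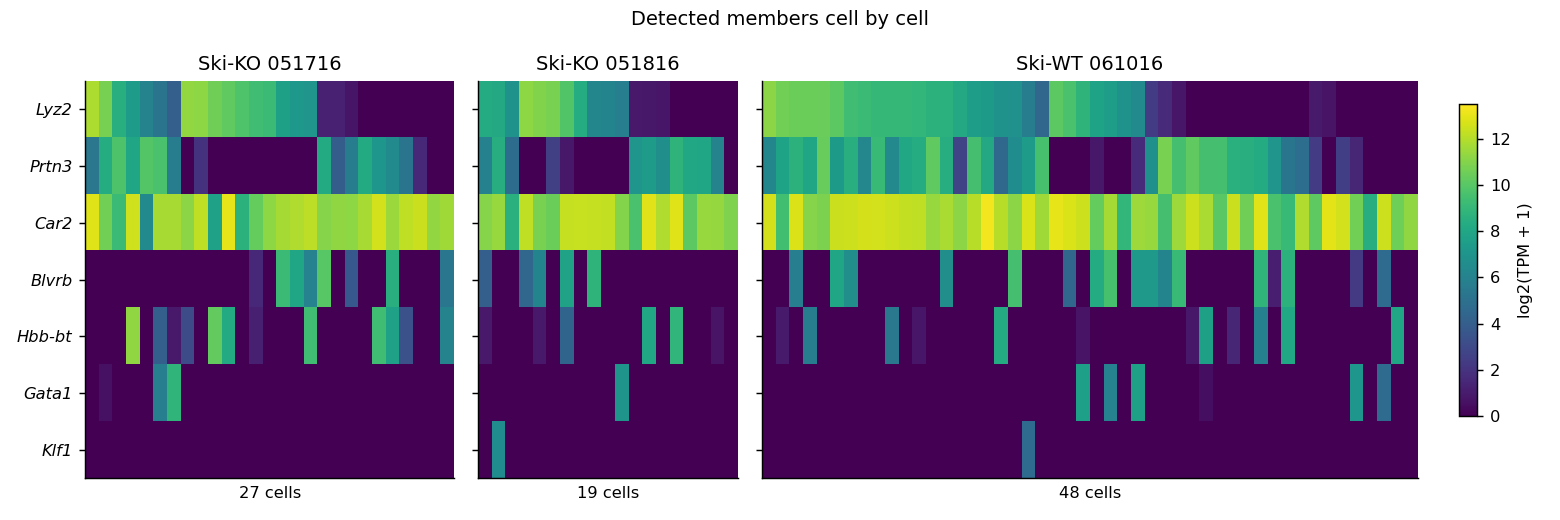
Level of the 7 genes found in any cell, with genes as rows and the 94 cells as columns, split by label prefix. Colour gives log2(TPM + 1), and cells are ordered within a prefix by detection of Lyz2, then of Prtn3, then by level. Blvrb, Hbb-bt and Gata1 are spread over cells with and without Lyz2, and Car2 is high throughout.

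Gata1-positive cells often held genes of the platelet lineage. Of the 8 Gata1-positive cells, 7 held Pf4, a platelet chemokine gene (2.55 expected), 7 held Gp9, a platelet glycoprotein gene (2.14 expected), and 7 held Plek, the platelet protein pleckstrin (2.43 expected). Nkg7, of the early neutrophil list and not the megakaryocyte list, was also in 7 of the 8 cells (3.18 expected, coefficient 0.30). It was the 1 of 7 compared genes of its list to reach 0.2 with Gata1. All of these genes were named after their values were seen. Pf4 was at 7150 and 7108 TPM in 2 of these cells, both Ski-WT. Over the 10 megakaryocyte list genes that could be compared, the median coefficient with Gata1 was 0.19, 9 were above 0 and 5 reached 0.2, while 15.5% of all genes reached 0.2 with Gata1 and their median was 0.07. For 10 erythroid regulators the median was 0.04 and 0 reached 0.2, and for 9 haem pathway genes the median was 0.09 and 4 reached 0.2. Of the erythroid members, Blvrb was in 3 Gata1-positive cells (2.34 expected) and Hbb-bt in 1 (1.63 expected).

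The same cells had more genes detected and more cell cycle transcripts. The level of Gata1 had a correlation of 0.39 over the 94 cells with the number of genes at 5 TPM or more, and of 0.38 with the mean level of 22 mitosis and replication genes. The 8 cells held 2540 to 3505 genes at 5 TPM or more, with a median of 3032 (3031.5 before rounding), against a median of 2302.5 over all cells. Of 14 mitosis and replication genes that could be compared, 9 reached 0.2 with Gata1. With the number of genes as a covariate, a choice made after the data were seen, the median over the megakaryocyte list was 0.08 and 3 of 10 reached 0.2, against 5.60% of all genes. The mitosis and replication list then also had a median of 0.08, with 3 of 14 at 0.2 or more, beside a median of 0.25 without the covariate. The coefficient was then 0.26 for Pf4, 0.33 for Gp9, 0.36 for Plek and 0.17 for Nkg7. The part of the cycle genes in this result was not tested. For the other genes the correlation with the number of genes lay between -0.01 (Lyz2) and 0.13 (Prtn3), and with the cycle genes between -0.07 (Prtn3) and 0.09 (Hbb-bt).

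**Figure D4:**
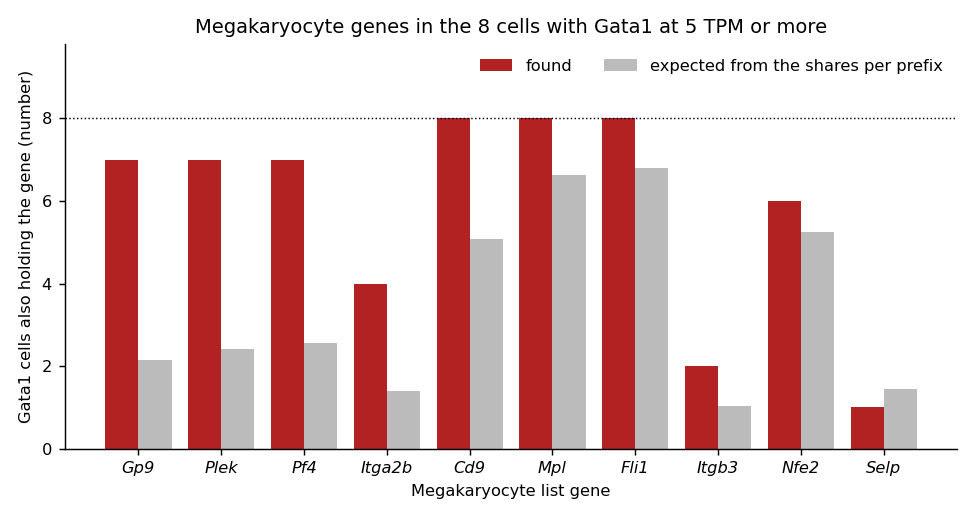
Number of the 8 Gata1-positive cells that also held each of 10 megakaryocyte list genes (red bars), beside the number expected from the shares within each prefix (grey bars). The dotted line marks all 8 cells. Gp9, Plek and Pf4 were found in 7 cells against 2.14 to 2.55 expected, and Selp in 1 against 1.45 expected.

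Prtn3 was found more than expected with several stem cell genes in the pooled cells. Among all genes compared, 4.41% had a coefficient of 0.2 or more with Prtn3 and 2.31% had -0.2 or less. A coefficient of -0.2 or less was reached with 1 of 10 erythroid regulators (Gata2), 1 of 2 structural red cell genes (Hemgn), 0 of 9 haem genes and 1 of 5 myeloid regulators. Gata1, in too few cells to belong to the genes behind these shares, also had such a coefficient. Prtn3 was with Gata1 in 2 cells (5.0 expected, coefficient -0.24), with Hemgn in 12 (17.4 expected, -0.26) and with Gata2, also a stem cell gene, in 40 (44.6 expected, -0.25). Over the 10 erythroid regulators the median with Prtn3 was -0.0014 and 4 were above 0. Both cells with Prtn3 and Gata1 were of prefix 051716, and none of the 5 Gata1-positive Ski-WT cells was Prtn3-positive, though 2 of them held low Prtn3 values (2.17 and 1.73 TPM). Of 13 stem cell list genes, 11 were above 0 (56.2% of all genes were) and the median was 0.15, beside 0.02 over all genes. Procr, the surface receptor of long-term stem cells, was with Prtn3 in 21 of its 24 cells (15.2 expected, 0.30). Hoxa9, a homeobox gene of stem cells, was with it in 28 of 36 (22.6 expected, 0.25), and Hlf, a stem cell transcription factor gene, in 44 of 65 (39.7 expected, 0.21). Mycn, also of this list, went the other way. It was with Prtn3 in 14 of its 29 cells, fewer than expected (-0.19). Procr, Hoxa9 and Mycn were named after their values were seen. In the Ski-WT cells alone the list median was 0.15 beside -0.03 over all genes, with 9 of 13 above 0 and 4 at 0.2 or more (6.58% of all genes). In the Ski-KO cells alone it was 0.06 beside 0.07, with 10 of 13 above 0 and 5 at 0.2 or more (19.8% of all genes). The difference between genotypes was not tested. With detection above 0 in place of 5 TPM the pooled median was 0.05.

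With Lyz2, 3.25% of all genes reached 0.2. Of the lists, 2 of 13 stem cell genes did (median -0.0065), and 0 of 7 granule genes, 0 of 10 megakaryocyte genes and 0 of 10 erythroid regulators did. For the granule genes the median with Lyz2 was 0.10 and 6 of 7 were above 0, beside 0.01 and 55.4% over all genes. With Prtn3 their median was 0.07, 5 of 7 were above 0 and 1 reached 0.2, beside 0.02, 56.2% and 4.41% over all genes. By level, the genes most like each member over the 94 cells, among 6614 others found in at least 10 cells, were mostly outside blood lineage lists. For Lyz2 they were Lyz1 (r 0.88), Sdcbp (0.36) and Marcks (0.32). For Prtn3 they were 2810013P06Rik (0.38), 4930470H14Rik (0.36) and Cln3 (0.36), and for Blvrb they were Mrpl51 (0.41), Arrb2 (0.38) and Crbn (0.37). Beside its duplicate row, Hbb-bt was nearest to Sun2 (0.39), Smo (0.37) and Asb13 (0.36), and Car2 to Vmn2r-ps129 (0.37), Mier3 (0.36) and Polr2d (0.34). The lowest correlation within a prefix was 0.84 for Lyz1 with Lyz2 and 0.37 for both 2810013P06Rik with Prtn3 and Mrpl51 with Blvrb, but it was -0.21 for Arrb2 with Blvrb and -0.07 for Polr2d with Car2.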

How the data were processed

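Single cells were captured on a Fluidigm C1 system and libraries made with SMARTer and Nextera XT chemistry, per the labels' protocols. Bowtie2, RSEM and mm9 are named per the submitters' processing notes, with no versions or roles. The authors deposited 1 table, and its numbers behave as log2(TPM + 1): turned back into TPM, a cell's sum was 997625 to 999995. Depth is unknown, so intervals cover numbers of cells only.

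Cells were grouped by title, with the description's 6-digit prefix kept. Values within 0.005 TPM of the limit counted as reaching it. All cells were kept, doublets were not called and cell types were not assigned. The 10 genes, the lists and the tests were chosen with earlier results of these data known. All 10 genes were named. From each list at most 4 genes with the highest share of cells were named, and for each of the 10 genes found in at least 10 cells the 3 with the highest prefix-centred Pearson correlation. Genes outside this rule are marked as chosen after their values were seen or are named because they were called or listed at 0 or few cells. Alternatives covered other detection limits, pseudocounts, prefixes, covariates and quantile normalization. The scripts were tested on simulated data with 200 shifted genes. Computation used scipy 1.17.1, pandas 2.3.3 and numpy 2.4.6 under Python 3.11.15, and plots used matplotlib 3.10.9.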

Additional observations from a re-analysis of the deposited data

How the results depend on the processing

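The number of genes found in at least 25% of all cells was 4 at 5 TPM and between 3 (50 TPM) and 5 (above 0) under the other limits. The number of genes at least 1 apart between genotypes was 2, and 1 with a pseudocount of 10 (Hbb-bt then differed by 0.63) or with prefix 051816 alone (Hbb-bt 0.13). Prtn3 stayed lower under all 8 alternatives, from -2.31 to -1.14. The median cross-lineage coefficient of -0.04 was -0.0881 at 1 TPM, 0.0091 at 50 TPM and 0.0041 without prefix 051716. The other coefficients for pairs moved by less than the SD over the 3 prefixes, a limit that is wide where the prefixes disagree. The coefficient of Lyz2 with Prtn3 ran from -0.41 without prefix 061016 to -0.0037 without prefix 051816. For Blvrb with Hbb-bt it changed sign, from -0.02 with detection above 0 to 0.07 without prefix 061016. No paired analysis was possible because replicate numbers only name single cells and no test between genotypes was made. With TPM and no depth, absence of a transcript from a cell cannot be told apart from a failure to capture it.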
